A study of Mus musculus with 48 samples.

Results

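The hippocampus was compared with the brain hemisphere in vehicle mice, that is, in the saline-infused control animals of a study of hypertension. The 12 libraries, 6 from each region, were chosen by their labels from the 48 of the series. Genes with at least 0.5 FPKM (fragments per kilobase of gene and 1000000 reads) in at least 6 of the 12 libraries were tested, which kept 15248 of the 54532 genes in the deposited table. The hippocampus vehicle and hemisphere vehicle groups shared their strain (C57Bl6), genotype (WT), sex (male), disease state (control) and treatment, an infusion of saline from an osmotic minipump for 2 weeks; no age was given. In the other 3 treatments of each region, used here as a second set of libraries, mice were given angiotensin II at 0.7 mg/kg per day, angiotensin II with hydralazine at 50 mg/kg in the drinking water, or hydralazine alone. Total RNA of each dissected piece was sequenced. The labels do not say whether the hemisphere piece held the cerebellum, the brainstem or a hippocampus. Nothing in them says whether the regions came from the same mice or the libraries of a group from separate ones, and every p-value therefore reflects only how much the libraries differ among themselves, which may be technical. Region and library preparation cannot be told apart.

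The hippocampus is a fold of the medial cortex that is needed to form memories of events and places. Signals enter it at the granule cells of the dentate gyrus, pass by mossy fibres to the pyramidal cells of CA3 and from there to CA1, with the small field CA2 between them. All of these are glutamatergic neurons of the cortical lineage, held in check by GABA interneurons. A whole hemisphere also holds neocortex, striatum and deeper nuclei, so a comparison of the regions sets one cortical circuit against a mixture of many.

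Libraries of the regions differed in more than their neurons. Reads in genes, worked out from the steps between FPKM values, numbered 12.7 to 21 M (M, 1000000) in the hippocampus and 15.8 to 20.7 M in the hemisphere. Hippocampal replicates 3 and 4 listed 12322 and 15684 genes above 0 FPKM, against 21430 to 22466 in the other 4 hippocampal libraries and 23693 to 24938 in the hemisphere. Replicate 3 listed 3652 of the tested genes at 0 and replicate 4 listed 1355, against 15 to 220 in the other 10 libraries, so an exact 0 in these replicates can be a failed measurement. Mitochondrial transcripts took 8.26% to 10.5% of reads in the hippocampus and 5.89% to 7.22% in the hemisphere. Hippocampal replicate 5 had more of the markers of other regions than the rest of its group. Its thalamic and habenular markers summed to 130.0 FPKM, against 11.9 to 16.5 FPKM in the other 5 hippocampal libraries, and its cerebellar markers to 64.1 FPKM, against 8.2 to 14.9 FPKM. Its choroid plexus markers summed to 149 FPKM, against 32.5 to 62.9 FPKM.

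**Figure D1:**
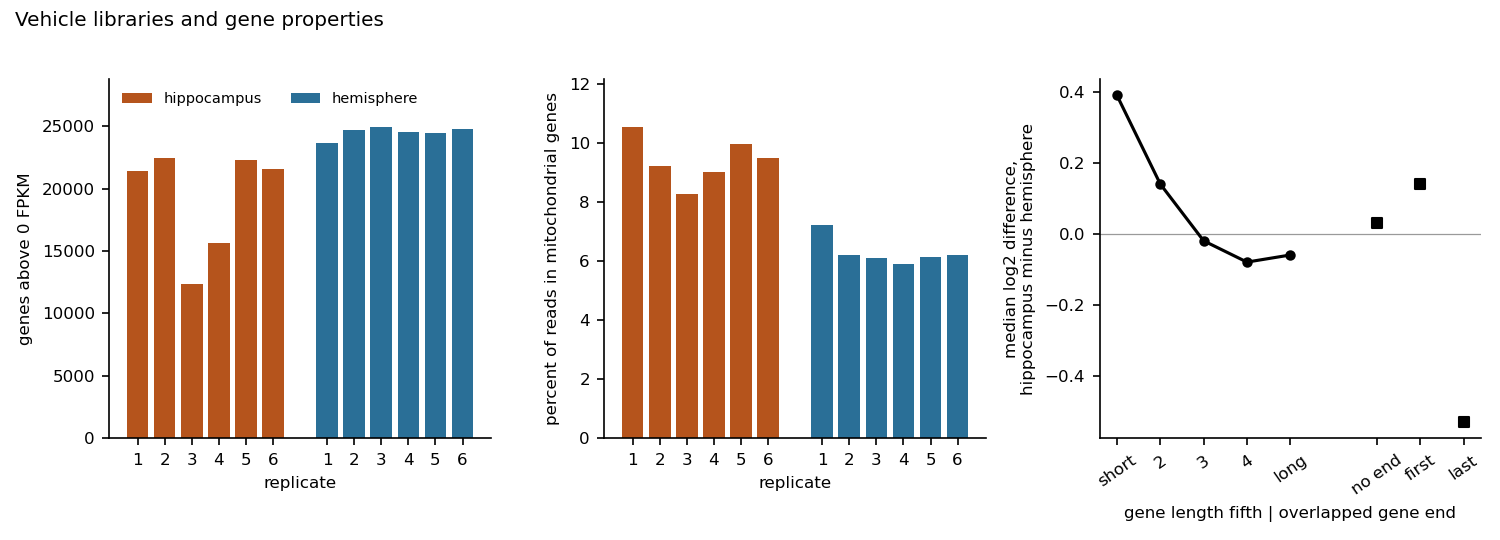
Genes listed above 0 FPKM (left) and percent of reads in mitochondrial genes (middle) in each vehicle library, and the median log2 difference, hippocampus minus hemisphere, by gene length (5 equal bins) and by overlap of gene ends (right). Hippocampal replicates 3 and 4 listed 12322 and 15684 genes, and the median was 0.39 in the bin of the shortest genes and -0.06 in that of the longest.

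Of the 15248 genes, 4206 (27.6%) were higher and 3273 (21.5%) were lower in the hippocampus at an adjusted p under 0.05 (limma on log2(FPKM + 0.5), scaled to equal medians), so 49% of all genes passed. A share of a gene list near these percentages is no more than the background. The libraries of the regions did not overlap for 12% of genes that were higher and 22% that were lower, 34% in all. The split depended on the scaling. The median of all genes was 0.04 as scaled here and -0.19 with no scaling, where 2806 genes were higher and 4995 lower. Median-of-ratios scaling gave 3102 higher and 4539 lower. FPKM values below are unscaled. For well expressed genes, a log2 difference given beside them therefore lies above the log2 ratio of the FPKM by about the shift between these medians. A small difference can differ from that ratio in sign. Where a gene is low in 1 region, the 0.5 added to FPKM makes the difference understate the ratio. Large differences were mostly losses: 61 genes were at least 8-fold lower and 11 at least 8-fold higher. Without hippocampal replicates 3 and 4, 10301 of 15062 genes passed (68.4%, 39.8% higher and 28.6% lower), and 7241 of the 7404 calls that could be tested again kept their direction and passed. The filter treats the regions unequally. A gene seen only in the hemisphere passes through 6 complete libraries, whereas one seen only in the hippocampus must also reach 0.5 FPKM in replicates 3 and 4. Without these replicates the filter still asked for 6 libraries, so a gene seen only in the hippocampus could not be tested. With at least 4 libraries asked for instead, 10860 of 16051 genes passed without them. Counts over the lists below describe the members that passed this filter, and a member that passed only through the hemisphere had to differ.

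Several genes with the greatest excess in the hippocampus are known from its principal neurons. Spink8, a secreted protease inhibitor of the Kazal type (chromosome 9, 109812280 to 109826633, plus strand), had 49.7 to 86.9 FPKM (median 72.9) in the hippocampus, against 2.37 to 3.19 FPKM (median 2.8) in the hemisphere, log2 difference 4.65 ± 0.14 (SE), adjusted p = 2.66e-10. Klk8, neuropsin, a secreted serine protease of the hippocampus (chromosome 7, 43797577 to 43803826, plus strand), had 19.8 to 38.5 FPKM (median 24.7) in the hippocampus, against 0.894 to 1.79 FPKM (median 1.33) in the hemisphere, log2 difference 4.10 ± 0.16 (SE), adjusted p = 2.53e-09. The lowest hippocampal library of each gene was more than 10 times the highest hemisphere library. Hpca, hippocalcin, a calcium sensor named for this region, had 1110.2 to 1905 FPKM (median 1544) in the hippocampus, against 185 to 264 FPKM (median 200.4) in the hemisphere, log2 difference 3.07 ± 0.13 (SE), adjusted p = 4.76e-09. Cnih2, which assembles with AMPA receptors and slows their closing, had 977 to 1573 FPKM (median 1219) in the hippocampus, against 149.9 to 211 FPKM (median 162) in the hemisphere, log2 difference 3.09 ± 0.12 (SE), adjusted p = 2.43e-09. Neither gene overlapped between the regions. Smaller but equally separate levels were those of Cebpd, a C/EBP transcription factor (11 to 17.7 FPKM in the hippocampus, 1.16 to 1.82 FPKM in the hemisphere, 3.20 on the log2 scale), and Rasd1, a Ras-like protein induced by glucocorticoids (38.4 to 60.7 FPKM and 5.82 to 9.14 FPKM, 2.88).

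Markers of the dentate granule cell were higher in most cases. Of 11 markers, all tested, 8 were higher and none lower, with a median log2 difference of 1.81 against 0.04 over all genes; the counts were the same without replicates 3 and 4. C1ql2, a complement-related protein secreted at mossy fibre synapses, had 72.4 to 116 FPKM (median 103) in the hippocampus, against 6.06 to 9.74 FPKM (median 7.16) in the hemisphere, log2 difference 3.88 ± 0.15 (SE), adjusted p = 1.78e-09. Lct, the gene of lactase and a marker of granule cells in mouse, had 8.04 to 12.8 FPKM (median 9.24) in the hippocampus, against 0.513 to 0.957 FPKM (median 0.741) in the hemisphere, log2 difference 3.28 ± 0.14 (SE), adjusted p = 3.45e-09. No library of one region reached the range of the other for these genes. Prox1, the homeodomain factor that sets granule cell identity, had 6.63 to 11.9 FPKM (median 7.41) in the hippocampus, against 1.86 to 2.7 FPKM (median 2.44) in the hemisphere, and so differed less (log2 difference 1.81 ± 0.15 (SE), adjusted p = 5.38e-07). Dsp, desmoplakin, had 3.02 to 7.91 FPKM (median 3.92) in the hippocampus, against 0.0987 to 0.415 FPKM (median 0.274) in the hemisphere, log2 difference 2.86 ± 0.22 (SE), adjusted p = 3.79e-07; it could not be tested without replicates 3 and 4. Plk5 (0.12) and Stxbp6 (0.77) did not pass, although Stxbp6 reached 1.08 without replicates 3 and 4 (adjusted p = 1.89e-06) and 1.14 without replicate 3 alone (adjusted p = 9.67e-07). Markers of the CA fields followed. Of 8 CA1 markers 6 were higher, with a median of 1.17; 6 were also higher without replicates 3 and 4. Lefty1, a secreted antagonist of Nodal, had 17.6 to 21.6 FPKM (median 20) in the hippocampus, against 0.342 to 1.6 FPKM (median 1.08) in the hemisphere, log2 difference 4.01 ± 0.20 (SE), adjusted p = 1.18e-08. Fibcd1, a membrane receptor for chitin and a marker of CA1, had 24.3 to 38.9 FPKM (median 33) in the hippocampus, against 5.85 to 7.54 FPKM (median 6.14) in the hemisphere, log2 difference 2.51 ± 0.12 (SE), adjusted p = 9.03e-09. Pou3f1, a POU factor, had 26.4 to 42.8 FPKM (median 41) in the hippocampus, against 7.67 to 8.82 FPKM (median 7.9) in the hemisphere, log2 difference 2.40 ± 0.12 (SE), adjusted p = 1.31e-08. In each case the regions stayed apart. Nov, a marker of the CA1 list, had 7.75 to 18.9 FPKM (median 16.7) in the hippocampus, against 18.8 to 24 FPKM (median 22.5) in the hemisphere and did not pass (log2 difference -0.38 ± 0.21 (SE), adjusted p = 0.15).

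Of 8 CA3 markers 5 were higher and 1 was lower, with a median of 0.97 and the same counts without replicates 3 and 4. Bok, a Bcl-2 relative that is abundant in CA3, had 80.8 to 132 FPKM (median 95.9) in the hippocampus, against 21.6 to 25.8 FPKM (median 24.3) in the hemisphere, log2 difference 2.26 ± 0.10 (SE), adjusted p = 6.33e-09. Cpne4, a copine that binds membranes in a calcium-dependent way, had 17.9 to 24.2 FPKM (median 19.6) in the hippocampus, against 6.47 to 7.54 FPKM (median 7.2) in the hemisphere, log2 difference 1.68 ± 0.08 (SE), adjusted p = 7.48e-09. Iyd, an iodotyrosine deiodinase, had 0 to 6.91 FPKM (median 4.89) in the hippocampus, against 0.307 to 0.592 FPKM (median 0.44) in the hemisphere, log2 difference 2.31 ± 0.55 (SE), adjusted p = 0.00342; its only 0 was in replicate 3, and it reached 2.84 without replicates 3 and 4. Coch, which encodes cochlin and stands on the CA3 list, was lower, with 0 to 4.8 FPKM (median 1.06) in the hippocampus, against 7.44 to 9.02 FPKM (median 8.52) in the hemisphere, log2 difference -2.19 ± 0.40 (SE), adjusted p = 0.000563. CA2 gave the least: 3 of its 6 tested markers were higher, and 1 with no scaling or median-of-ratios scaling. Rgs14, which dampens plasticity in CA2 pyramidal cells, had 24.8 to 37.7 FPKM (median 26.5) in the hippocampus, against 9.98 to 12.6 FPKM (median 11) in the hemisphere, log2 difference 1.55 ± 0.11 (SE), adjusted p = 2.45e-07. Necab2 (0.74) and Amigo2 (0.68) passed with regions that overlapped, and their highest values, 123 and 17.4 FPKM, were in hippocampal replicate 5. Neither call was stable: Amigo2 did not pass without any 1 of 10 libraries, every one but hippocampal replicates 3 and 6 (adjusted p = 0.0581 to 0.0934), nor Necab2 without hippocampal replicate 4 or any 1 of hemisphere replicates 3 to 6 (adjusted p = 0.0514 to 0.0566). The count of CA2 markers was then 1 without any 1 of the libraries named for Necab2. Bulk RNA cannot tell more cells of a type from more RNA per cell, here or below.

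Genes shared by excitatory neurons of the whole telencephalon were higher without exception: 13 of 13 passed, with a median of 1.39, and the count was 13 without replicates 3 and 4 and in the other 3 treatments. Nrgn, neurogranin, a postsynaptic calmodulin-binding protein, had 2003 to 3684 FPKM (median 2703) in the hippocampus, against 578 to 882 FPKM (median 671) in the hemisphere, log2 difference 2.20 ± 0.15 (SE), adjusted p = 1.27e-07. Neurod6, a basic helix-loop-helix factor of cortical excitatory neurons, had 101 to 151 FPKM (median 139.8) in the hippocampus, against 28.4 to 36 FPKM (median 31.7) in the hemisphere, log2 difference 2.29 ± 0.11 (SE), adjusted p = 1.18e-08. Its relative Neurod2 had 64.4 to 99.5 FPKM (median 84.1) in the hippocampus, against 27.8 to 31 FPKM (median 29.1) in the hemisphere, log2 difference 1.72 ± 0.10 (SE), adjusted p = 4.9e-08. Both factors were separated between the regions, but the other tested member of the family ran the other way. Neurod1, which granule neurons of the dentate gyrus and cerebellum use as they mature, had 8.9 to 11.6 FPKM (median 9.36) in the hippocampus, against 16.7 to 24.4 FPKM (median 18.8) in the hemisphere, log2 difference -0.71 ± 0.11 (SE), adjusted p = 0.000125. Zbtb20, a zinc finger repressor of the developing hippocampus, had 5.04 to 6.78 FPKM (median 5.48) in the hippocampus, against 1.2 to 1.59 FPKM (median 1.41) in the hemisphere, log2 difference 1.93 ± 0.11 (SE), adjusted p = 3.35e-08. Among the 8 tested genes of adult neurogenesis, 1 was higher and 2 were lower (4 lower without replicates 3 and 4). Igfbpl1, a marker of immature granule neurons, was higher (1.34), whereas Eomes, the T-box factor of intermediate progenitors, was lower (-1.40), and each had 1 hippocampal library listed at 0. Mki67, Top2a and Draxin of this list were too low to test.

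**Figure D2:**
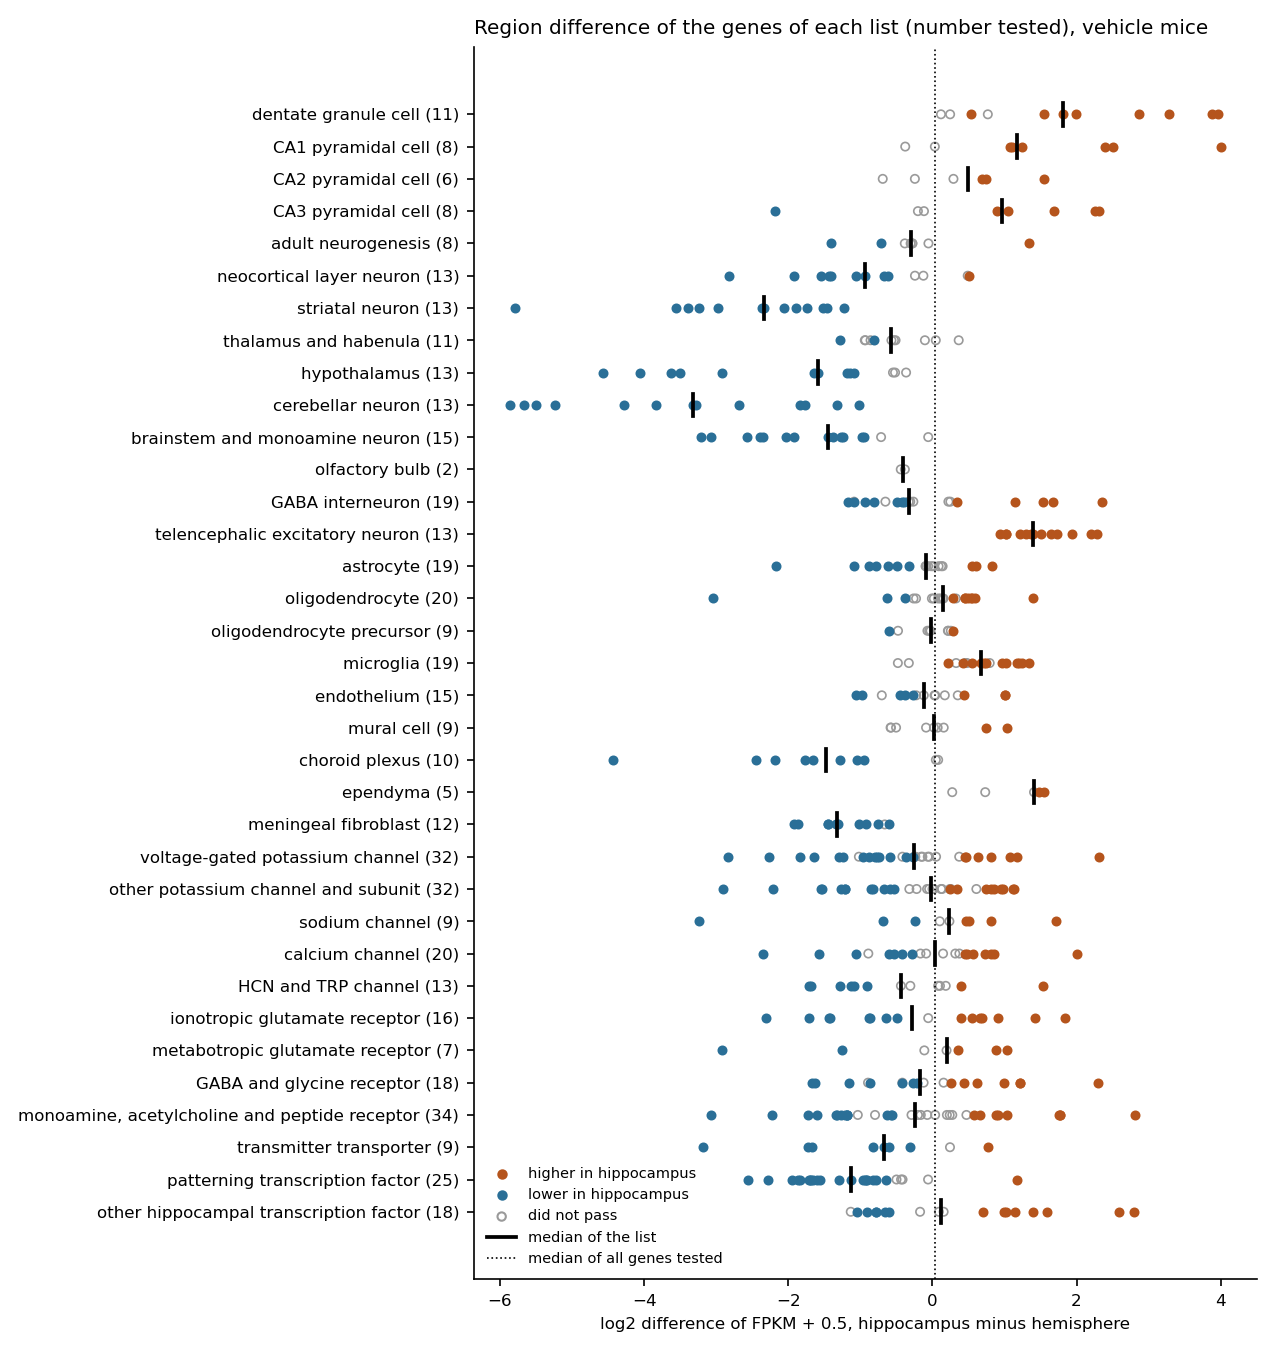
Log2 difference, hippocampus minus hemisphere, of the tested genes of each list in vehicle mice; filled points passed at an adjusted p under 0.05, bars are list medians and the dotted line is the median of all genes. Dentate, CA1 and telencephalic excitatory lists lie to the right (medians 1.81, 1.17 and 1.39), and the striatal and cerebellar lists lie wholly to the left (medians -2.34 and -3.32).

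Markers of neurons of other regions were among the greatest losses. All 13 cerebellar markers were lower, with a median of -3.32. Some, such as Cbln3 and Gabra6, passed the filter only through the hemisphere and so had to be lower. The count was thus fixed in part by the filter. Cbln3, a secreted cerebellin of granule cells (chromosome 14, 55878913 to 55884392, minus strand), had 0 to 0.0637 FPKM (median 0.0317) in the hippocampus, against 30.3 to 47.3 FPKM (median 34.1) in the hemisphere, log2 difference -5.87 ± 0.11 (SE), adjusted p = 2.21e-12. Gabra6, the GABA-A subunit of cerebellar granule cells (chromosome 11, 42306437 to 42321072, minus strand), was listed at 0 in all 6 hippocampal libraries and had 23.4 to 34.1 FPKM in the hemisphere (adjusted p = 2.11e-12). Car8, a carbonic anhydrase-related protein of Purkinje cells, had 0 to 0.722 FPKM (median 0.407) in the hippocampus, against 38.1 to 51.5 FPKM (median 45) in the hemisphere, log2 difference -5.50 ± 0.17 (SE), adjusted p = 3.15e-10. Cbln1, a granule cell cerebellin, had 0.706 to 10.2 FPKM (median 2.36) in the hippocampus, against 55.5 to 86.4 FPKM (median 63.9) in the hemisphere, log2 difference -4.28 ± 0.40 (SE), adjusted p = 1.74e-06, and the highest hippocampal value was again in replicate 5. Pcp2, a Purkinje cell protein, was listed at 0 in 5 of 6 hippocampal libraries and had 19.2 to 28.7 FPKM in the hemisphere; its last 500 exon bases lie wholly within another gene. Cerebellar transcripts were thus plainly detected in the hemisphere libraries. Ppp1r17 (-4.84), a phosphatase inhibitor of Purkinje cells, and Baiap3 (-4.31), a Munc13-like protein of vesicle release, were also among the 12 greatest losses.

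All 13 striatal markers were lower as well, with a median of -2.34, and no library of either region overlapped for any of them. Adora2a, the adenosine receptor of the indirect pathway, had 0 to 1.02 FPKM (median 0.98) in the hippocampus, against 14.8 to 19.5 FPKM (median 15.4) in the hemisphere, log2 difference -3.56 ± 0.24 (SE), adjusted p = 1.42e-07. Drd2, the dopamine receptor of the same neurons, had 0 to 3.46 FPKM (median 0.783) in the hippocampus, against 12.4 to 18.3 FPKM (median 13.5) in the hemisphere, log2 difference -3.24 ± 0.35 (SE), adjusted p = 6.37e-06. Rxrg, a retinoid receptor of striatum, had 0 to 0.473 FPKM (median 0.33) in the hippocampus, against 7.58 to 9.22 FPKM (median 8.74) in the hemisphere, log2 difference -3.40 ± 0.19 (SE), adjusted p = 3.64e-08. For each gene the highest hippocampal value was below the lowest hemisphere value. Of 13 tested hypothalamic markers 10 were lower, with a median of -1.58. Oxt, the precursor of oxytocin, had 0 to 0.994 FPKM (median 0.376) in the hippocampus, against 15.9 to 36.3 FPKM (median 22.4) in the hemisphere, log2 difference -4.57 ± 0.32 (SE), adjusted p = 1.72e-07. Avp, the precursor of vasopressin, had 0 to 8.07 FPKM (median 2.13) in the hippocampus, against 20.4 to 40.3 FPKM (median 27.3) in the hemisphere, log2 difference -3.62 ± 0.62 (SE), adjusted p = 0.000296. Hcrt, the precursor of orexin, had 0 to 0.565 FPKM (median 0.236) in the hippocampus, against 6.36 to 11.6 FPKM (median 9.18) in the hemisphere, log2 difference -3.50 ± 0.22 (SE), adjusted p = 8.36e-08. Pomc (-0.52) and Gal (-0.36) did not pass, although Gal had -0.79 without hippocampal replicate 3 (adjusted p = 0.0381). Of 15 tested brainstem and monoamine markers 13 were lower, with a median of -1.44. Th, which makes the dopamine precursor, had 0 to 1.3 FPKM (median 0.189) in the hippocampus, against 6.43 to 9.26 FPKM (median 7.37) in the hemisphere, log2 difference -3.21 ± 0.27 (SE), adjusted p = 6.59e-07. Slc6a3, the dopamine transporter, had 0 to 0.157 FPKM (median 0.0434) in the hippocampus, against 2.83 to 3.67 FPKM (median 3.4) in the hemisphere, log2 difference -2.58 ± 0.12 (SE), adjusted p = 8.13e-09. The glycine transporter Slc6a5 was listed at 0 in 5 hippocampal libraries and had 4.02 to 5.21 FPKM in the hemisphere. Without replicates 3 and 4, the lower genes numbered 12 of the cerebellar, 13 of the striatal, 11 of the hypothalamic and 15 of the brainstem markers. Some members, such as Rxrg and Slc6a3, passed the filter only through the hemisphere and so had to be lower without overlap. How many others did so was not worked out, so these counts cannot show that a list as a whole was lower.

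Neocortical layer genes were lower in 9 of 13 cases and higher in 1, with a median of -0.94. Nxph4, a neurexophilin of deep-layer neurons, had 0 to 2.74 FPKM (median 1.17) in the hippocampus, against 10.4 to 17.5 FPKM (median 12.4) in the hemisphere, log2 difference -2.82 ± 0.38 (SE), adjusted p = 4.16e-05. Cux2, the homeodomain factor of upper layers, had 0.612 to 2.19 FPKM (median 1.28) in the hippocampus, against 6.86 to 7.59 FPKM (median 7.39) in the hemisphere, log2 difference -1.92 ± 0.16 (SE), adjusted p = 6.6e-07. Lamp5 had 11 to 19.3 FPKM (median 16.7) in the hippocampus, against 50.4 to 57.3 FPKM (median 51.2) in the hemisphere, log2 difference -1.44 ± 0.13 (SE), adjusted p = 1e-06. Fezf2, a zinc finger factor of deep-layer projection neurons, was the exception (0.51, adjusted p = 0.0467); it did not pass without replicates 3 and 4 (adjusted p = 0.0906), or without any 1 library other than hippocampal replicates 3 and 5 (adjusted p = 0.0589 to 0.103). Thalamic and habenular markers rested on 1 library. Of 11 genes 2 were lower, but without hippocampal replicate 5 the count was 8, with a median of -0.98 in place of -0.57. Rgs16 had 1.75 to 16.4 FPKM in the hippocampus, where replicate 5 held the highest value, and 7.84 to 11.2 FPKM in the hemisphere; its difference was -1.28 with all libraries and -1.73 without replicate 5. Prkcd, a protein kinase of thalamic relay neurons, had -0.51 (adjusted p = 0.293) with all libraries and -0.91 (adjusted p = 0.000279) without that replicate. Neither olfactory bulb marker tested, Doc2g (-0.44) or Cdhr1 (-0.38), passed.

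**Figure D3:**
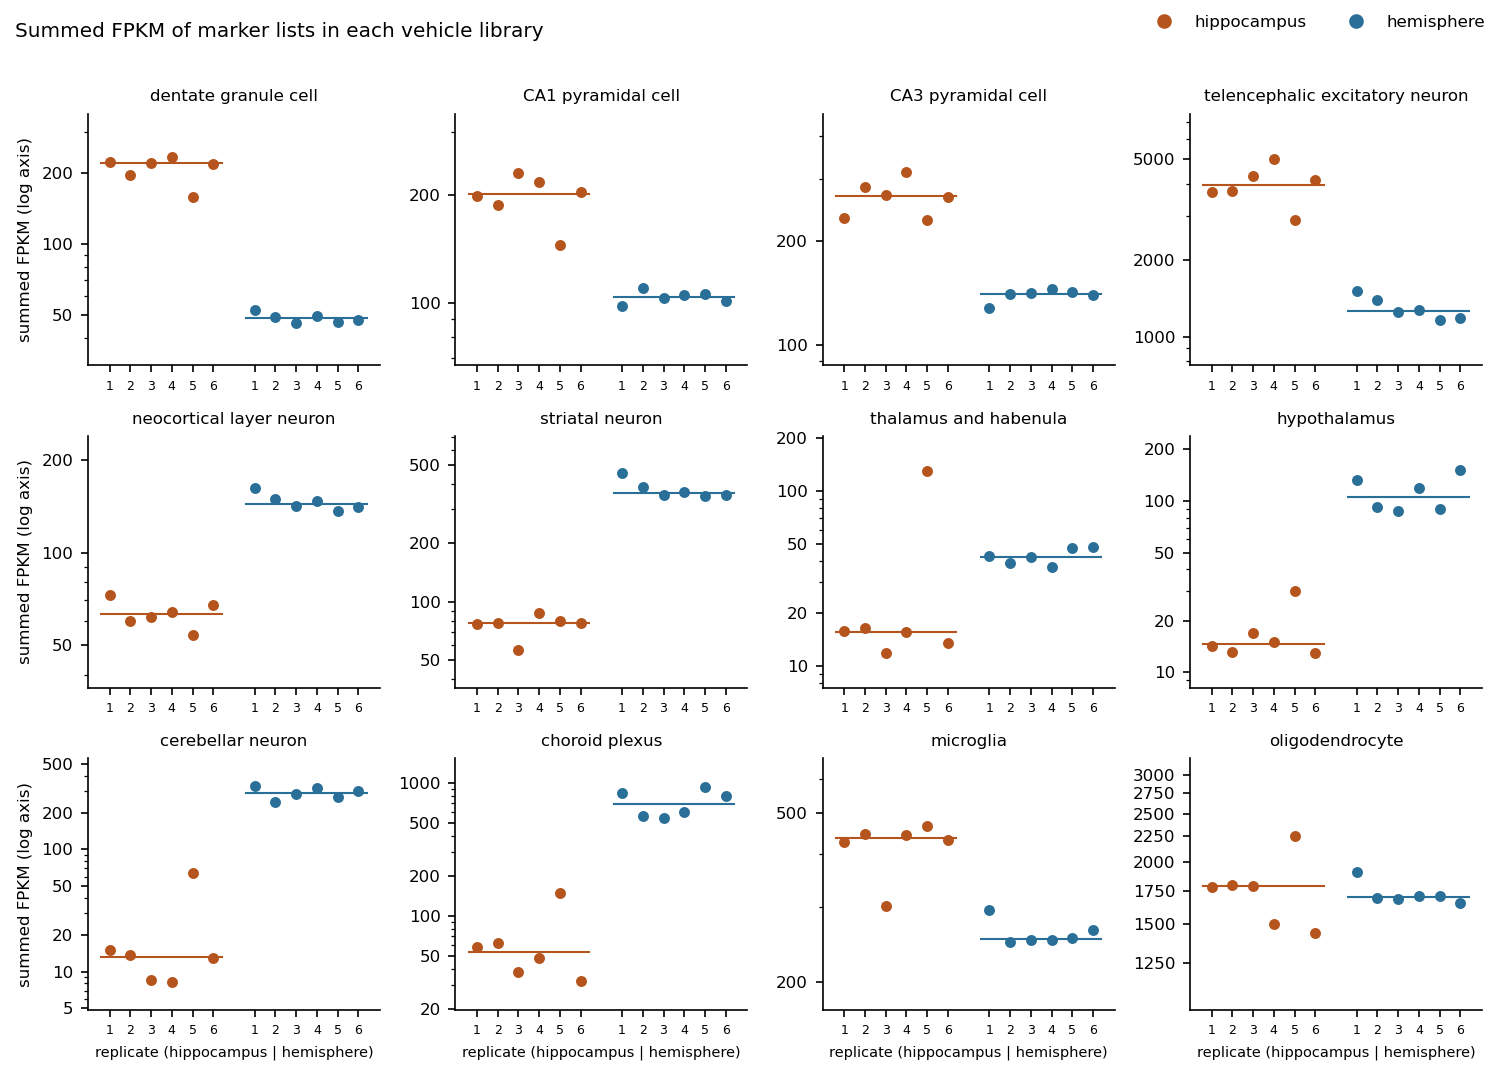
Summed FPKM of 12 marker lists (log axis) in each library, hippocampal replicates 1 to 6 on the left and hemisphere replicates 1 to 6 on the right of each panel; lines are medians. Hippocampal replicate 5 stands above its group for thalamic and habenular (130.0 FPKM), cerebellar (64.1 FPKM) and choroid plexus (149 FPKM) markers.

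Interneuron genes were divided. Of 19 tested, 5 were higher and 7 lower, with a median of -0.33. Without replicates 3 and 4 the counts were 5 and 10, and with no scaling 4 and 9. The higher ones were mostly transmitter peptides. Cck, cholecystokinin, which excitatory neurons also make, had 683 to 975 FPKM (median 766) in the hippocampus, against 162 to 223 FPKM (median 175) in the hemisphere, log2 difference 2.36 ± 0.10 (SE), adjusted p = 4.19e-09. Sst, somatostatin, had 508 to 769 FPKM (median 601) in the hippocampus, against 222 to 321 FPKM (median 250.5) in the hemisphere, log2 difference 1.53 ± 0.12 (SE), adjusted p = 4.78e-07. Npy, neuropeptide Y, had 182 to 234 FPKM (median 206) in the hippocampus, against 68.2 to 92.8 FPKM (median 75.8) in the hemisphere, log2 difference 1.67 ± 0.10 (SE), adjusted p = 3.65e-08. All 3 peptides were separate between the regions, as was Htr3a, a serotonin-gated channel of one interneuron class (1.15). By contrast, Slc32a1, the vesicular transporter of GABA and glycine, had 13.8 to 28.9 FPKM (median 22.9) in the hippocampus, against 55.8 to 68.5 FPKM (median 57.5) in the hemisphere, log2 difference -1.17 ± 0.14 (SE), adjusted p = 1.99e-05. Reln, a secreted matrix protein, had 0.845 to 1.44 FPKM (median 1.21) in the hippocampus, against 2.55 to 3.32 FPKM (median 2.91) in the hemisphere, log2 difference -0.80 ± 0.12 (SE), adjusted p = 0.000116. Pvalb, the calcium buffer of fast-spiking cells, had 14.5 to 169.6 FPKM (median 91.8) in the hippocampus, against 166 to 226 FPKM (median 179) in the hemisphere and did not pass (log2 difference -1.09 ± 0.44 (SE), adjusted p = 0.0547), but it passed at -0.64 without replicates 3 and 4 (adjusted p = 0.0109), at -0.63 without replicate 3 (adjusted p = 0.00632) and at -1.32 without replicate 5 (adjusted p = 0.0218).

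Microglial genes were higher more often than not. Of 19 genes 12 were higher and none lower, with a median of 0.68; without replicates 3 and 4 the counts were 17 and 1, with no scaling 10 and 2. C1qa, a chain of the first complement component, had 61.2 to 104 FPKM (median 94.1) in the hippocampus, against 37.8 to 51.5 FPKM (median 39) in the hemisphere, log2 difference 1.34 ± 0.12 (SE), adjusted p = 1.21e-06. C1qb had 49.5 to 92.4 FPKM (median 82.9) in the hippocampus, against 35.2 to 49.4 FPKM (median 39.1) in the hemisphere (1.18), and C1qc had 23.1 to 44 FPKM (median 37.9) in the hippocampus, against 15.8 to 22.2 FPKM (median 17.2) in the hemisphere (1.20). Tyrobp, the adaptor of TREM2, had 15.7 to 44.4 FPKM (median 37.9) in the hippocampus, against 14.9 to 17.5 FPKM (median 15.8) in the hemisphere, log2 difference 1.24 ± 0.19 (SE), adjusted p = 0.000149. The lowest hippocampal value of Tyrobp fell inside the hemisphere range. Cx3cr1, the fractalkine receptor, had 4.04 to 11.1 FPKM (median 8.65) in the hippocampus, against 6.1 to 8.19 FPKM (median 7.59) in the hemisphere and did not pass (log2 difference 0.33 ± 0.18 (SE), adjusted p = 0.148), but passed at 0.50 without hippocampal replicate 3 (adjusted p = 0.000271). The median of the microglial list was 0.51 after a trend with gene length was removed. Blood markers, which are haemoglobin genes and Alas2, summed to 90.3 to 322 FPKM (median 162) in the hippocampus, against 56 to 153 FPKM (median 77.7) in the hemisphere. Hippocampal replicate 5 had the highest sum. Of these 5 genes 1 was higher, no more than the background of 27.6%, and none lower, with a median of 0.60. Without replicates 3 and 4, or without replicate 3 alone, 4 were higher (medians 1.45 and 1.28), while the median without replicate 5 was 0.26. The part of blood in the microglial and endothelial values was not tested. The haemoglobin genes are close copies, and how reads were divided among them is unknown.

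Of 19 astrocyte genes 3 were higher and 7 lower, with a median of -0.09, and the lower count depended on the scaling. It was 12 with no scaling (3 higher, median -0.31), 10 with median-of-ratios scaling (3 higher, median -0.25) and 13 with quantile scaling (0 higher, median -0.66). Gfap, the intermediate filament of astrocytes, had 96.2 to 121 FPKM (median 106) in the hippocampus, against 61.2 to 76.4 FPKM (median 71) in the hemisphere, log2 difference 0.83 ± 0.07 (SE), adjusted p = 7.39e-07; it was higher under each scaling except the quantile one. Itih3, of the same list, had 0 to 8.31 FPKM (median 4.28) in the hippocampus, against 15.5 to 20.3 FPKM (median 18.3) in the hemisphere, log2 difference -2.16 ± 0.53 (SE), adjusted p = 0.00401. Aldh1l1, a folate enzyme of astrocytes, had 4.9 to 9.82 FPKM (median 7.4) in the hippocampus, against 13.7 to 15.6 FPKM (median 14.5) in the hemisphere, log2 difference -0.79 ± 0.13 (SE), adjusted p = 0.000186. Agt, angiotensinogen, which astrocytes make, had 9.8 to 58 FPKM (median 14.9) in the hippocampus, against 40.1 to 61.8 FPKM (median 44.2) in the hemisphere, log2 difference -1.08 ± 0.33 (SE), adjusted p = 0.0167. Its highest hippocampal value came from replicate 5, and without that replicate its difference was -1.40. Aldoc (-0.09) and Glul (-0.06) did not pass as scaled here, but were lower with median-of-ratios scaling (-0.26 and -0.23, adjusted p = 0.0144 and 0.0137). Oligodendrocyte genes were higher in 8 of 20 cases and lower in 3, but the direction of the group turned with the scaling: the median was 0.15 as scaled here, -0.08 with no scaling (3 higher and 5 lower), -0.02 with median-of-ratios scaling and -0.23 with quantile scaling (2 higher and 8 lower). Opalin, a membrane protein of myelinating cells, had 29.4 to 46.6 FPKM (median 37.9) in the hippocampus, against 11.9 to 19.9 FPKM (median 18) in the hemisphere, log2 difference 1.39 ± 0.16 (SE), adjusted p = 8.84e-06. Klk6, a protease of oligodendrocytes, had 0 to 5.15 FPKM (median 1.05) in the hippocampus, against 10.8 to 16.3 FPKM (median 12) in the hemisphere, log2 difference -3.05 ± 0.48 (SE), adjusted p = 0.000165. Mbp, myelin basic protein, did not pass (log2 difference -0.01 ± 0.09 (SE), adjusted p = 0.957). Of 9 precursor markers 1 was higher and 1 lower, and the lower one was Gpr17 (-0.61), a receptor of cells about to differentiate.

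Choroid plexus and meningeal genes that passed the filter were mostly lower, while endothelial and mural cell counts were close to the background. Of the 14 choroid plexus markers 10 were tested, and 8 were lower, with a median of -1.47 (7 without replicates 3 and 4). Some, such as Clic6, passed the filter only through the hemisphere and so had to be lower. Ttr, transthyretin, the chief secreted protein of the choroid plexus, had 7.24 to 108 FPKM (median 27.5) in the hippocampus, against 471 to 819.8 FPKM (median 621) in the hemisphere, log2 difference -4.43 ± 0.51 (SE), adjusted p = 1.03e-05. Clic6, related to chloride channels, had 0 to 0.463 FPKM (median 0.202) in the hippocampus, against 3.07 to 6.1 FPKM (median 3.49) in the hemisphere, log2 difference -2.44 ± 0.22 (SE), adjusted p = 1.21e-06. Kl (0.08) and Sostdc1 (0.05) did not pass. Of 12 tested meningeal fibroblast genes 11 were lower, with a median of -1.32, among them Fmod, fibromodulin, with 0.709 to 3.06 FPKM (median 1.12) in the hippocampus, against 6.93 to 9.28 FPKM (median 7.9) in the hemisphere, log2 difference -1.92 ± 0.24 (SE), adjusted p = 2.33e-05. Dcn, decorin, had 0 to 3.91 FPKM (median 0.912) in the hippocampus, against 3.64 to 4.52 FPKM (median 3.88) in the hemisphere, log2 difference -1.45 ± 0.39 (SE), adjusted p = 0.00745. Endothelial genes were divided, with 3 of 15 higher and 5 lower. Only 3 were lower without any 1 of hippocampal replicates 2 and 4 and hemisphere replicates 2, 4 and 5. Of all genes 27.6% were higher and 21.5% lower, so these counts are near the background. Ly6a and Ly6c1, surface proteins of brain endothelium, were higher (1.01 and 1.01), whereas Podxl (-0.97), Kdr (-0.46) and Flt1 (-0.38) were lower. Kdr and Flt1 are receptors of vascular endothelial growth factor. The Ly6 genes belong to a family of close copies, and how reads were divided among them is not given in the sources used here. Mural cell genes gave 2 higher and none lower of 9, no more than the background. They gave 1 higher and 3 lower with no scaling, 1 and 2 with median-of-ratios scaling and none either way with a length trend removed. Of 5 tested ependymal genes Ccdc153 (1.54) and Dynlrb2 (1.48), parts of motile cilia, were higher. Replicate 5 had the highest value of both, and 4 ependymal genes were higher without replicate 3.

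Glutamate receptors changed in their make-up. Of 16 tested ionotropic genes 7 were higher and 8 lower, so 15 passed against 49% of all genes. Among AMPA receptor subunits, Gria1 had 115 to 146 FPKM (median 140.0) in the hippocampus, against 46.3 to 66.1 FPKM (median 61.9) in the hemisphere, log2 difference 1.42 ± 0.09 (SE), adjusted p = 9.91e-08. Gria2, the subunit that limits calcium entry, had 19 to 29.9 FPKM (median 27.3) in the hippocampus, against 15.4 to 17 FPKM (median 16.2) in the hemisphere, log2 difference 0.91 ± 0.11 (SE), adjusted p = 1.15e-05. Gria4, which fast-spiking and cerebellar neurons favour, had 3.71 to 6.82 FPKM (median 4.05) in the hippocampus, against 16.1 to 19.8 FPKM (median 18.3) in the hemisphere, log2 difference -1.71 ± 0.12 (SE), adjusted p = 1.49e-07. These 3 did not overlap between the regions, while Gria3 did, with 10.7 to 14.6 FPKM (median 13.2) in the hippocampus, against 10.9 to 12.3 FPKM (median 11.7) in the hemisphere (log2 difference 0.40 ± 0.09 (SE), adjusted p = 0.00173). In the hippocampus the order by level was Gria1, Gria2, Gria3, Gria4, without overlap between neighbours. In the hemisphere Gria1 again led, and Gria4 and Gria2 overlapped. Of the NMDA receptor genes, Grin2a had 13.8 to 20.4 FPKM (median 19.1) in the hippocampus, against 5.39 to 6.03 FPKM (median 5.65) in the hemisphere, log2 difference 1.84 ± 0.10 (SE), adjusted p = 2.2e-08. Grin2c, the subunit of cerebellar granule cells and astrocytes, had 6.27 to 10.3 FPKM (median 9.37) in the hippocampus, against 25.1 to 32.5 FPKM (median 28.7) in the hemisphere, log2 difference -1.42 ± 0.11 (SE), adjusted p = 3.15e-07. Among kainate receptors, Grik5 was higher (0.69), and Grik3 was lower, with 0.572 to 2.37 FPKM (median 1.81) in the hippocampus, against 10.1 to 12.7 FPKM (median 11.6) in the hemisphere, log2 difference -2.30 ± 0.19 (SE), adjusted p = 7.35e-07. Metabotropic receptors split likewise. Grm5 had 10 to 18.3 FPKM (median 13.7) in the hippocampus, against 6.73 to 8.15 FPKM (median 7.51) in the hemisphere, log2 difference 1.04 ± 0.13 (SE), adjusted p = 1.62e-05. Grm4, which sits on terminals of cerebellar granule cells, had 1.44 to 7.43 FPKM (median 1.62) in the hippocampus, against 20.6 to 31.3 FPKM (median 24.3) in the hemisphere, log2 difference -2.92 ± 0.30 (SE), adjusted p = 4.46e-06. Of 7 metabotropic receptors tested 3 were higher and 2 lower. Grm2 was higher (0.89) although its last exon bases are overlapped by another gene. Cacng8, an AMPA receptor partner of the gamma calcium channel family that is concentrated in the hippocampus, had 60 to 123 FPKM (median 92.5) in the hippocampus, against 24.2 to 28.6 FPKM (median 26.3) in the hemisphere, log2 difference 2.01 ± 0.14 (SE), adjusted p = 1.92e-07.

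GABA-A alpha subunits showed as wide a range. Gabra5, the extrasynaptic subunit of hippocampal pyramidal cells, had 51.7 to 83.2 FPKM (median 71.7) in the hippocampus, against 13.9 to 17 FPKM (median 16.4) in the hemisphere, log2 difference 2.30 ± 0.11 (SE), adjusted p = 1.17e-08. Gabra2 had 8.58 to 13.7 FPKM (median 11) in the hippocampus, against 4.82 to 5.64 FPKM (median 5.24) in the hemisphere, log2 difference 1.22 ± 0.11 (SE), adjusted p = 1.2e-06. Gabra3 had 1.98 to 7.71 FPKM (median 6) in the hippocampus, against 18.9 to 22.6 FPKM (median 20.7) in the hemisphere, log2 difference -1.68 ± 0.24 (SE), adjusted p = 6.55e-05. Gabra4 was higher by less (0.62) and its regions overlapped. By level, Gabra5 led the family in the hippocampus, with all 6 libraries above those of Gabra2, Gabra3, Gabra4 and Gabra6. Of these 5 genes, Gabra6 was highest in the hemisphere. Of 18 tested GABA and glycine receptor genes 7 were higher and 7 lower. Gabrb1, a beta subunit, was higher (0.99). Gabrd, the tonic-current subunit of granule cells, had 7.2 to 20.2 FPKM (median 12.9) in the hippocampus, against 31.6 to 36.2 FPKM (median 33.8) in the hemisphere, log2 difference -1.16 ± 0.18 (SE), adjusted p = 0.000143. Gabrq (-1.63) was listed at 0 in 4 hippocampal libraries, and Glra3 (-0.86), a glycine receptor, was also lower.

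**Figure D4:**
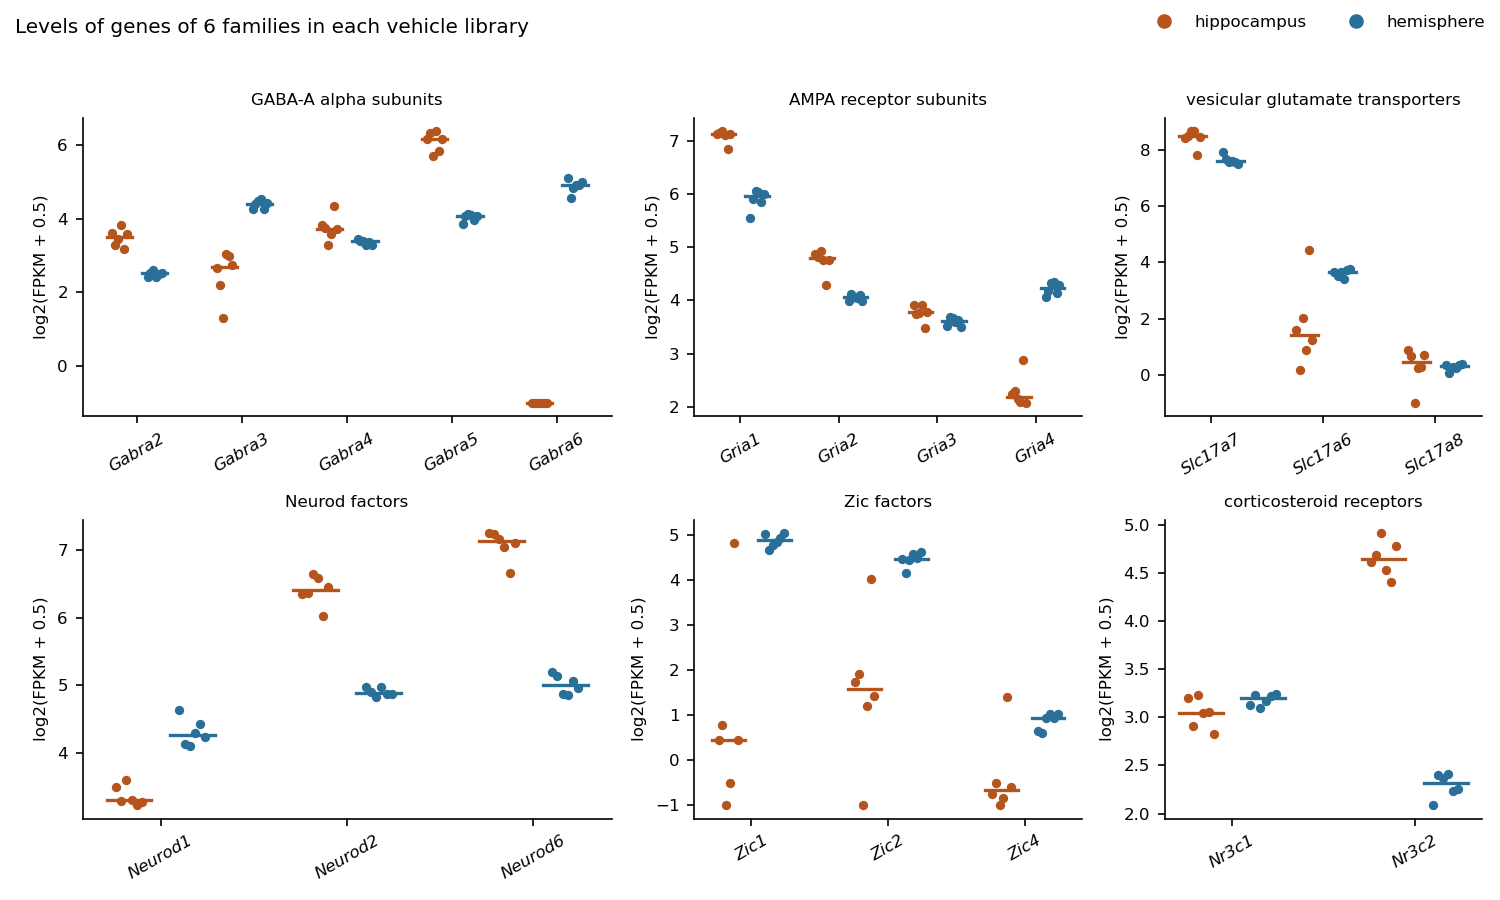
Levels of genes of 6 families, as log2(FPKM + 0.5), in hippocampal (left of each pair) and hemisphere libraries (right); bars are medians and points are libraries. Gabra5, Gria1, Neurod6 and Nr3c2 lie above their hemisphere levels without overlap, and Gabra6 is listed at 0 in all 6 hippocampal libraries.

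Voltage-gated potassium channels were lower more often than higher, whereas the other potassium channel genes were nearly balanced. Of 32 tested voltage-gated subunits 7 were higher and 14 lower, with a median of -0.26; without replicates 3 and 4 the counts were 9 and 17. Kcng2, a silent modifier of Kv2 channels, had 8.21 to 15.2 FPKM (median 12.5) in the hippocampus, against 2.01 to 2.91 FPKM (median 2.36) in the hemisphere, log2 difference 2.31 ± 0.15 (SE), adjusted p = 8.48e-08. Kcnq3, a subunit of the M-current, had 9.28 to 19 FPKM (median 10.8) in the hippocampus, against 5.35 to 6.18 FPKM (median 5.88) in the hemisphere, log2 difference 1.17 ± 0.15 (SE), adjusted p = 2.19e-05. Kcnd2, the A-type channel of pyramidal cell dendrites, had 19.8 to 24.2 FPKM (median 20.7) in the hippocampus, against 13.6 to 15.1 FPKM (median 13.8) in the hemisphere, log2 difference 0.81 ± 0.07 (SE), adjusted p = 5.78e-07. These stood apart without overlap, as did the lower ones that follow. Kcnh4, an ether-a-go-go relative, had 0 to 0.55 FPKM (median 0.182) in the hippocampus, against 4.8 to 5.82 FPKM (median 5.08) in the hemisphere, log2 difference -2.84 ± 0.19 (SE), adjusted p = 1e-07. Kcnf1, another silent Kv2 modifier, had 3.6 to 7.23 FPKM (median 5.33) in the hippocampus, against 15.5 to 23.1 FPKM (median 21.8) in the hemisphere, log2 difference -1.64 ± 0.14 (SE), adjusted p = 7.68e-07. Kcng4, a further modifier of Kv2, had 0 to 10 FPKM (median 2.14) in the hippocampus, against 11.5 to 17.1 FPKM (median 14) in the hemisphere, log2 difference -2.27 ± 0.51 (SE), adjusted p = 0.00235. Of 32 other potassium channel genes 9 were higher and 12 lower, with a median of -0.02, and without replicates 3 and 4 the counts were 11 and 12. Kcnj3, a subunit of the channel that G proteins open, had 21.5 to 26.8 FPKM (median 25.7) in the hippocampus, against 13.2 to 15.8 FPKM (median 15.1) in the hemisphere, log2 difference 0.96 ± 0.07 (SE), adjusted p = 1.8e-07. Its partner Kcnj9 ran the other way, with 9.06 to 15.9 FPKM (median 11.7) in the hippocampus, against 40.1 to 43.1 FPKM (median 40.4) in the hemisphere, log2 difference -1.55 ± 0.10 (SE), adjusted p = 1.07e-07. The channel partners thus moved apart. Kcnip2, which binds Kv4 channels, was higher (1.12), as was Kcnab2, a beta subunit of Kv1 channels (0.97). Kcnt1, a sodium-activated channel, had 1.6 to 6.08 FPKM (median 1.85) in the hippocampus, against 22.1 to 26.9 FPKM (median 23.6) in the hemisphere, log2 difference -2.91 ± 0.24 (SE), adjusted p = 6.76e-07, and Kcnj12, an inward rectifier, had 0.579 to 4.75 FPKM (median 1.21) in the hippocampus, against 8.67 to 11.6 FPKM (median 10.1) in the hemisphere, log2 difference -2.21 ± 0.30 (SE), adjusted p = 4.67e-05. Kcnk3, a leak channel closed by acid, was lower (-1.54).

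Sodium and calcium channels were balanced in number, with 4 of 9 higher and 3 lower, and 7 of 20 higher and 7 lower (3 and 3, and 6 and 9, with no scaling). Scn3b, a beta subunit, had 31.5 to 55 FPKM (median 44.5) in the hippocampus, against 12.7 to 17.1 FPKM (median 15.3) in the hemisphere, log2 difference 1.72 ± 0.12 (SE), adjusted p = 1.8e-07. Scn4b, the beta subunit of striatal and Purkinje neurons, had 4.05 to 7.82 FPKM (median 4.36) in the hippocampus, against 53 to 59.9 FPKM (median 58.6) in the hemisphere, log2 difference -3.24 ± 0.12 (SE), adjusted p = 1.96e-09. These beta subunits therefore moved in opposite directions, each without overlap. Scn1a, the pore of interneurons, was lower (-0.69), Scn8a was higher with overlapping regions (0.51), and Scn2a did not pass (0.10). Calcium channel pores also went both ways. Cacna1g, a T-type channel of thalamus, had 2.6 to 5.75 FPKM (median 3.82) in the hippocampus, against 13.5 to 15.2 FPKM (median 14.8) in the hemisphere, log2 difference -1.58 ± 0.13 (SE), adjusted p = 7.98e-07. Cacna1e, the R-type channel, had 8.7 to 11.4 FPKM (median 11) in the hippocampus, against 5.81 to 8.23 FPKM (median 6.64) in the hemisphere, log2 difference 0.86 ± 0.10 (SE), adjusted p = 8.51e-06. Cacna2d2, the alpha-2-delta subunit of Purkinje cells, had 0.679 to 3.44 FPKM (median 1.28) in the hippocampus, against 11.1 to 12.5 FPKM (median 11.7) in the hemisphere, log2 difference -2.35 ± 0.25 (SE), adjusted p = 5.05e-06, whereas Cacna2d1 was higher (0.73). Of 13 HCN and TRP channels 2 were higher and 6 lower. Trpc4 had 2.94 to 7.39 FPKM (median 4.24) in the hippocampus, against 1.14 to 1.71 FPKM (median 1.5) in the hemisphere, log2 difference 1.53 ± 0.19 (SE), adjusted p = 2.63e-05.

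Receptors for amines, acetylcholine and peptides were tested for 34 of 46 genes, of which 9 were higher and 14 lower. Npy2r, the presynaptic receptor of neuropeptide Y, had 9.63 to 16.5 FPKM (median 13.8) in the hippocampus, against 1.59 to 1.97 FPKM (median 1.85) in the hemisphere, log2 difference 2.81 ± 0.13 (SE), adjusted p = 7.75e-09. Adra1d, an adrenergic receptor, had 17.3 to 75.5 FPKM (median 37.1) in the hippocampus, against 11.1 to 15.7 FPKM (median 12.4) in the hemisphere, log2 difference 1.75 ± 0.26 (SE), adjusted p = 0.000112. Htr5b, a serotonin receptor that is a pseudogene in humans, had 3.87 to 10.7 FPKM (median 4.4) in the hippocampus, against 0.848 to 2.37 FPKM (median 1.53) in the hemisphere, log2 difference 1.78 ± 0.28 (SE), adjusted p = 0.000158. Drd5, a dopamine receptor coupled to cyclic AMP, had 0 to 5.97 FPKM (median 5.02) in the hippocampus, against 0.686 to 0.881 FPKM (median 0.819) in the hemisphere, log2 difference 1.76 ± 0.53 (SE), adjusted p = 0.0138; its lowest value was a 0 in replicate 3, and without replicates 3 and 4 it reached 2.41. Chrm4, the muscarinic receptor of striatal neurons, had 0 to 3.34 FPKM (median 0.963) in the hippocampus, against 12.6 to 15.6 FPKM (median 13.6) in the hemisphere, log2 difference -3.07 ± 0.37 (SE), adjusted p = 1.58e-05. Oprd1, the delta opioid receptor, had 0 to 0.217 FPKM (median 0.0838) in the hippocampus, against 1.63 to 3.11 FPKM (median 2.93) in the hemisphere, log2 difference -2.22 ± 0.16 (SE), adjusted p = 2.04e-07. Crhr1, a receptor of corticotropin-releasing hormone, had 3.19 to 8.08 FPKM (median 4.14) in the hippocampus, against 14 to 21.1 FPKM (median 17.4) in the hemisphere, log2 difference -1.60 ± 0.18 (SE), adjusted p = 1.03e-05. These 3 lay below their hemisphere range in all 6 hippocampal libraries.

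Transmitter transporters were lower in 7 of 9 cases and higher in 1. The vesicular glutamate transporters divide excitatory neurons into cortical (Slc17a7) and subcortical (Slc17a6) types. Slc17a7 had 229 to 409 FPKM (median 359) in the hippocampus, against 179 to 242 FPKM (median 193) in the hemisphere, log2 difference 1.02 ± 0.14 (SE), adjusted p = 5.41e-05. Slc17a6 had 0.62 to 21.3 FPKM (median 2.18) in the hippocampus, against 10.1 to 13.2 FPKM (median 12.1) in the hemisphere, log2 difference -1.68 ± 0.54 (SE), adjusted p = 0.0198; the hippocampal high was replicate 5, and without it the difference was -2.21. Slc17a8, the remaining one, did not pass (0.24), but did at 0.50 without replicate 3 (adjusted p = 0.00837). Slc30a3, which loads zinc into vesicles of mossy fibres and cortical terminals, had 39.1 to 54.8 FPKM (median 49.2) in the hippocampus, against 28.9 to 38.3 FPKM (median 32.1) in the hemisphere, log2 difference 0.78 ± 0.10 (SE), adjusted p = 3.88e-05. Slc30a3 was the 1 higher gene of the list. Slc6a9, a glycine transporter, had 0.363 to 1.87 FPKM (median 0.623) in the hippocampus, against 10.6 to 17.2 FPKM (median 12.3) in the hemisphere, log2 difference -3.18 ± 0.24 (SE), adjusted p = 3.34e-07. Slc6a11, a GABA transporter of astrocytes, had 12 to 34.1 FPKM (median 15.6) in the hippocampus, against 63.8 to 74.9 FPKM (median 68.9) in the hemisphere, log2 difference -1.73 ± 0.19 (SE), adjusted p = 5.94e-06. Slc38a1, which moves glutamine, was lower as well (-0.83).

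Transcription factors that pattern other parts of the brain were mostly lower where they could be tested. Of 45 patterning factors of diencephalon and hindbrain 25 passed the filter, and 20 of these were lower and 1 higher, with a median of -1.13. Some, such as Barhl2 and Lhx1, passed the filter only through the hemisphere and so had to be lower. How many others did so was not worked out, so the count cannot show that the list as a whole was lower. Barhl2, a homeodomain factor of diencephalon and hindbrain, had 0 to 0.173 FPKM (median 0.042) in the hippocampus, against 2.4 to 3.82 FPKM (median 3.47) in the hemisphere, log2 difference -2.55 ± 0.14 (SE), adjusted p = 3.35e-08. Lhx1, a LIM factor of Purkinje cells, had 0 to 0.0843 FPKM (median 0.0301) in the hippocampus, against 2.12 to 3.41 FPKM (median 2.44) in the hemisphere, log2 difference -2.28 ± 0.13 (SE), adjusted p = 3.52e-08. Meis2, a homeodomain factor of striatal neurons, had 1.29 to 2.74 FPKM (median 1.89) in the hippocampus, against 8.65 to 10.3 FPKM (median 9.47) in the hemisphere, log2 difference -1.87 ± 0.13 (SE), adjusted p = 1.95e-07. None of the 3 overlapped between the regions. Hoxa5, a factor of the hindbrain and spinal cord, was listed at 0 in all 6 hippocampal libraries and had 2.11 to 3.47 FPKM in the hemisphere. Lhx9 was the 1 patterning factor that was higher (1.18). The Zic factors of cerebellum and thalamus were lower, but replicate 5 set their spread. Zic1 had 0 to 27.8 FPKM (median 0.857) in the hippocampus, against 24.9 to 32.6 FPKM (median 29.5) in the hemisphere, log2 difference -3.83 ± 0.75 (SE), adjusted p = 0.00085. Without replicate 5 its difference was -4.62, and that of Zic2 was -3.18 in place of -2.69. Zic4 passed by less (-1.02), and did not pass without replicates 3 and 4 (adjusted p = 0.0708). En2, the engrailed factor of the cerebellum, had 0 to 0.256 FPKM (median 0.0768) in the hippocampus, against 4.6 to 6.91 FPKM (median 6.65) in the hemisphere, log2 difference -3.28 ± 0.15 (SE), adjusted p = 8.74e-09.

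A list of nuclear factor I, zinc finger and other factors, which also holds factors of neocortical neurons, gave 8 higher and 6 lower of 18. Lmo1, a LIM-only protein, had 46.1 to 78.5 FPKM (median 57.8) in the hippocampus, against 7.81 to 14.2 FPKM (median 9.18) in the hemisphere, log2 difference 2.80 ± 0.15 (SE), adjusted p = 2.91e-08. Its relative Lmo3 had 29.4 to 44.5 FPKM (median 38.6) in the hippocampus, against 15.2 to 17.8 FPKM (median 16.5) in the hemisphere, log2 difference 1.39 ± 0.10 (SE), adjusted p = 1.68e-07. Nfib, a nuclear factor I protein of hippocampal development, had 10.9 to 14.1 FPKM (median 12.9) in the hippocampus, against 4.34 to 5.34 FPKM (median 4.56) in the hemisphere, log2 difference 1.58 ± 0.09 (SE), adjusted p = 3.8e-08. Prdm8, a zinc finger factor of dorsal telencephalon that is not on this list, had 18.1 to 24.6 FPKM (median 22.2) in the hippocampus, against 3.82 to 4.88 FPKM (median 4.14) in the hemisphere, log2 difference 2.44 ± 0.10 (SE), adjusted p = 2.88e-09. Lmo1, Lmo3, Nfib and Prdm8 did not overlap between the regions. Mef2c, an activity-dependent factor of neocortical neurons, had 4.24 to 6.33 FPKM (median 5.16) in the hippocampus, against 11.5 to 14.7 FPKM (median 13.5) in the hemisphere, log2 difference -1.05 ± 0.10 (SE), adjusted p = 1.61e-06. Corticosterone acts on the brain through a pair of receptors. Nr3c2, the mineralocorticoid receptor, binds it with the higher affinity and is concentrated in the hippocampus, where it had 20.7 to 29.6 FPKM (median 24.6), against 3.75 to 4.82 FPKM (median 4.48) in the hemisphere (log2 difference 2.59 ± 0.10 (SE), adjusted p = 1.93e-09). Nr3c1, the glucocorticoid receptor, had 6.59 to 8.92 FPKM (median 7.78) in the hippocampus, against 8.08 to 8.96 FPKM (median 8.68) in the hemisphere and did not pass (log2 difference 0.09 ± 0.08 (SE), adjusted p = 0.404). Nr3c2 thus exceeded Nr3c1 in all 6 hippocampal libraries and lay below it in all 6 hemisphere libraries. Nr4a3, an orphan receptor induced by activity, had 12.4 to 20.4 FPKM (median 15.1) in the hippocampus, against 2.4 to 5.51 FPKM (median 4.26) in the hemisphere, log2 difference 2.10 ± 0.19 (SE), adjusted p = 1.31e-06. Cebpb, a C/EBP factor like Cebpd, had 5.33 to 20.7 FPKM (median 15.8) in the hippocampus, against 2.96 to 4.23 FPKM (median 3.88) in the hemisphere, log2 difference 2.00 ± 0.26 (SE), adjusted p = 2.94e-05. Immediate early genes, which neurons switch on within minutes of activity, gave 3 higher and 3 lower of 12, with no gene free of overlap. The lower ones numbered 5 without replicate 3 of either region, and with no scaling 1 gene was higher and 6 were lower. In the other 3 treatments 6 genes of the list were higher and 1 lower, with a median of 0.36, in place of -0.58 in vehicle mice. Egr4 was higher (1.02), and Egr2 (-1.47) and Npas4 (-1.56) were lower. Arc did not pass (-0.68), but had -0.85 without hippocampal replicate 3 (adjusted p = 0.0348) and -0.90 without hemisphere replicate 3 (adjusted p = 0.0286). In the other 3 treatments Arc was higher, at 0.98 (adjusted p = 0.00303). The direct test of the difference between vehicle and the other treatments, given below, passed for 0 of 17643 genes. A change of the region difference with treatment is therefore not shown for Arc or the list.

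In the other 3 treatments, with 18 libraries of each region, 9303 of 17246 genes passed (53.9%, 34.7% higher and 19.2% lower). Of the 7478 genes called in vehicle mice and tested there, 6132 (82%) passed in the same direction and none passed in the opposite one. Neither set of libraries contains a library of the other. Spink8 had 4.90 in the other treatments, Nr3c2 2.95, Gabra5 2.65 and Cbln3 -5.61. A test of the difference itself, vehicle minus the mean of the other treatments, passed for 0 of 17643 genes (limma; 309 had an unadjusted p under 0.05, and each alternative fit also gave 0). Those libraries, too, include hippocampal ones with few genes (7805 in the lowest).

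**Figure D5:**
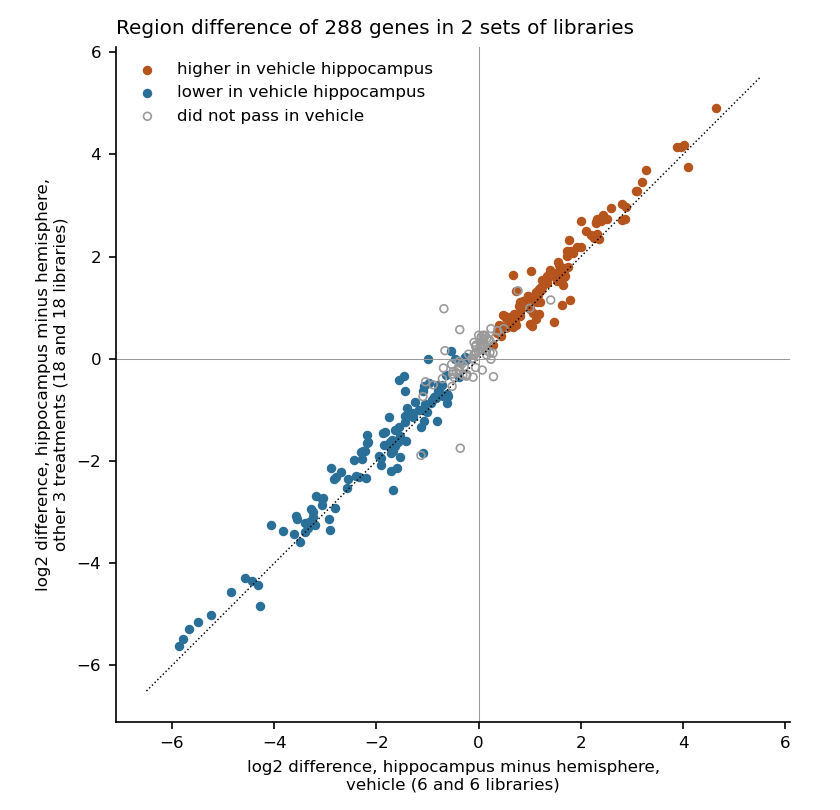
Log2 difference, hippocampus minus hemisphere, of the 288 genes that the rule for named genes gave, in vehicle libraries (horizontal) and in libraries of the other 3 treatments (vertical); the dotted line marks equal values. Genes called in vehicle mice lie near the line in both directions, from Cbln3 at lower left (-5.87 and -5.61) to Spink8 at upper right (4.65 and 4.90).

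Some differences moved with properties of the gene. When genes were divided into 5 equal bins by length, the median was 0.39 in the shortest bin and -0.06 in the longest. All 28 ribosomal protein genes were higher, with a median of 1.43, or 1.14 after a length trend was removed, and Rps16 had 249.9 to 344 FPKM (median 313) in the hippocampus, against 96 to 135 FPKM (median 109) in the hemisphere. Of 13 mitochondrially encoded genes 11 were higher, with a median of 1.12. Protein-coding genes whose last 500 exon bases lie wholly within another gene numbered 286 and had a median of -0.53, with 13.3% higher and 49% lower. Where instead the first 500 bases were overlapped, 161 genes had a median of 0.14, with 32.9% higher and 13.7% lower. Arfgap2 (-3.57), Pdxk (-3.39) and Atg9a (-3.34), housekeeping genes of the first kind that were picked after their values were seen, were lower by as much as many marker genes. Whether the counting used strand is not given in the sources used here, and the part of library preparation in these patterns was not tested. Of the genes described above, Pcp2 has such an end. The last 500 exon bases of others are overlapped in part, among them Grm2 (94%), Aldh1l1 (49%) and Baiap3 (28%).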

How the data were processed

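Per the labels' protocols, libraries for sequencing were made from 2 µg of total RNA of hippocampus or brain hemisphere. The authors deposited 1 table of FPKM values, normalised to gene length and to library size, for all 48 libraries, and FPKM and the gene length beside it (in bases, unit other) were used as deposited. The submitters' processing notes list GRCm38, mm10 and DESeq 1.10.1 without a role. The sources used here give no aligner, counting tool or use of strand. Coordinates are those of the deposited table.

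Groups were taken from the labels. Since FPKM are not counts, log2(FPKM + 0.5) was tested with limma 3.58.1 (R 4.3.3; trend and robust prior, two-sided), after each library was scaled to the same median, on genes that reached 0.5 FPKM in 6 or more libraries. A gene passed at a Benjamini-Hochberg adjusted p under 0.05 over all genes tested, and every adjusted p given is from this test. Log2 differences are on the scale of log2(FPKM + 0.5) and understate the change of low genes. Reads were recovered from the steps between FPKM values to within 0.1 read. For a gene of 1 kb, 1 read equalled 0.0485 to 0.0802 FPKM in the hippocampus and 0.0463 to 0.0601 FPKM in the hemisphere. None of 30 pairs of vehicle libraries of 1 group agreed within sampling noise. Gene ends came from GENCODE M21, which holds 99.77% of the gene identifiers. The test was tried on simulated data before use.

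The members and gene lists were chosen with earlier results of these data known. Genes named were the 12 with the largest difference in each direction, up to 4 that passed in each direction and up to 2 that did not from each list, and whole families. This rule gave 288 genes, among them Arfgap2, Pdxk and Atg9a, which were picked after their values were seen. Of these, 174 are described, and some of the others are not reported here. Alternatives covered the pseudocount, filter, scaling, prior, library weights, replicate block and libraries left out. Tables were made with Python 3.11.15, pandas 2.3.3, numpy 2.4.6 and matplotlib 3.10.9.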

Additional observations from a re-analysis of the deposited data

Results flagged for a closer look

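Within a group of 6 libraries, 68 of the 328 sets of values examined held 1 library set apart from the other 5 by more than Dixon's 95% critical share of the whole range, which chance gives in about 1 of 20. Of these, 29 were hippocampal replicate 5, 22 were hemisphere replicate 1, 14 were hippocampal replicate 3, 2 were hemisphere replicate 6 and 1 was hemisphere replicate 2. Each value below is followed in parentheses by the range of the other 5 libraries of its group.

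Hippocampal replicate 5 held high values of genes of thalamus, cerebellum and brainstem, and of single striatal genes such as Drd2. Its summed striatal markers, at 79.4 FPKM, lay inside the range of its group (56.3 to 87.4 FPKM). Among factors and signalling genes it had 27.8 FPKM of Zic1 (0 to 1.23), 15.9 FPKM of Zic2 (0 to 3.25) and 2.14 FPKM of Zic4 (0 to 0.202). It also had 29.3 FPKM of Prkcd (3.29 to 6.67), 16.4 FPKM of Rgs16 (1.75 to 2.31), 21.3 FPKM of Slc17a6 (0.62 to 3.55) and 3.76 FPKM of Lhx9 (1.19 to 2.09). Of cerebellar and striatal genes it had 10.2 FPKM of Cbln1 (0.706 to 2.64), 7.43 FPKM of Grm4 (1.44 to 3.52) and 6.82 FPKM of Gria4 (3.71 to 4.43), as well as 3.46 FPKM of Drd2 (0 to 0.852), 7.82 FPKM of Scn4b (4.05 to 4.51), 10 FPKM of Kcng4 (0 to 2.58) and 4.75 FPKM of Kcnj12 (0.579 to 1.92). Further high values were 1.3 FPKM of Th (0 to 0.21), 2.51 FPKM of Baiap3 (0 to 0.324), 123 FPKM of Necab2 (30.1 to 63.4) and 5.15 FPKM of Klk6 (0 to 1.25), then 58 FPKM of Agt (9.8 to 23.2), 34.1 FPKM of Slc6a11 (12 to 19.3) and 108 FPKM of Ttr (7.24 to 33.6), and of vessel and meninges genes 49.1 FPKM of Ly6a (28.5 to 35.6) and 3.91 FPKM of Dcn (0 to 1.38). The same library was lowest for genes of hippocampal principal neurons, with 229 FPKM of Slc17a7 (342 to 409), 115 FPKM of Gria1 (138 to 146) and 19 FPKM of Gria2 (26.6 to 29.9), 13.8 FPKM of Grin2a (18.6 to 20.4) and 8.7 FPKM of Cacna1e (10.5 to 11.4), and 26.4 FPKM of Pou3f1 (37.3 to 42.8). The part of dissection or library preparation in these values was not tested.

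Hippocampal replicate 3, the library with the fewest genes above 0, stood apart by a value of 0 for 4 genes, with 0 FPKM of Adora2a (0.697 to 1.02), 0 FPKM of Drd5 (4.06 to 5.97), 0 FPKM of Igfbpl1 (2.51 to 3.43) and 0 FPKM of Iyd (4.74 to 6.91). It was low for complement genes, with 61.2 FPKM of C1qa (90.4 to 104) and 49.5 FPKM of C1qb (77.6 to 92.4). It was high elsewhere, with 19 FPKM of Kcnq3 (9.28 to 11.4), 6.08 FPKM of Kcnt1 (1.6 to 2.6), 10.6 FPKM of Gabrb1 (7.91 to 8.62) and 8.08 FPKM of Crhr1 (3.19 to 4.84), and with 70.1 FPKM of Ly6c1 (35.7 to 47.6), 10.6 FPKM of Gal (0.682 to 4.07), 4.31 FPKM of Pdxk (0.482 to 1.47) and 1.51 FPKM of Eomes (0 to 0.164).

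Hemisphere replicate 1 listed 23693 genes above 0, against 24506 to 24938 in the other hemisphere libraries, gave 7.22% of its reads to mitochondrial genes in place of 5.89% to 6.21%, and had FPKM values that summed to 330100 in place of 286600 to 294700. It held the highest values of its group, with 114 FPKM of Kcnab2 (89.5 to 94.3), 55.6 FPKM of Grik5 (44.4 to 48.2) and 211 FPKM of Cnih2 (150 to 170), with 68.5 FPKM of Slc32a1 (55.8 to 57.6), 321 FPKM of Sst (222 to 258), 18.3 FPKM of Drd2 (12.4 to 13.7) and 57.3 FPKM of Lamp5 (50.4 to 51.7). So it did with 51.5 FPKM of C1qa (37.8 to 39.9), 49.4 FPKM of C1qb (35.2 to 40.5), 449 FPKM of Aldoc (347 to 381) and 598 FPKM of Mbp (476 to 501), with 45.9 FPKM of Necab2 (34 to 36.8), 7.54 FPKM of Fibcd1 (5.85 to 6.26), 14.2 FPKM of Lmo1 (7.81 to 9.42) and 5.34 FPKM of Nfib (4.34 to 4.71), and with 12.6 FPKM of Grm2 (9.26 to 10.5) and 43.1 FPKM of Kcnj9 (40.1 to 41). It held the lowest values with 15.5 FPKM of Kcnf1 (21.4 to 23.1) and 1.63 FPKM of Oprd1 (2.69 to 3.11). Of the remaining hemisphere libraries, replicate 6 had 18.4 FPKM of Pomc (1.99 to 2.83) and 7.44 FPKM of Coch (8.44 to 9.02), and replicate 2 had 4.6 FPKM of En2 (6.24 to 6.91).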

How the results depend on the processing

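Of the 155 genes that passed and are named, 128 passed in the same direction under all 31 alternatives that could test them. Genes that passed numbered 7479, and 17458 with no filter (15606 higher and 1852 lower, of 31814 tested) or 4506 in a fit of all 48 libraries (2385 higher and 2121 lower). More were higher with library weights (6363) and without hippocampal replicates 3 and 4 with a filter in at least 4 libraries (6358). More were lower with no scaling (4995) and without replicates 3 and 4 after a trend with gene length was removed (5012). With no filter 26351 genes passed in the other treatments. Leaving out 1 library at a time, on the same genes, gave 6704 to 9737 genes, 3854 to 5635 higher and 2850 to 4102 lower, each highest without hippocampal replicate 3. Other scalings cost up to 10 named calls, those of the quantile fit, Gfap among them, and the cause was not tested. The fits with the length trend removed or genes with overlapped ends left out were chosen after seeing the data.

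With the replicate number as a block, 6927 genes passed (3934 higher and 2993 lower), 9062 in the other treatments and 0 for the difference of the region effect. Same-numbered libraries of the regions correlated at -0.09 to 0.05 in their deviations from the group means, and no library correlated best with its own number, so the numbers were not taken to pair the samples.

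Depth limits low genes, and a gene absent from the hippocampus is bounded only by the worth of a read. Exact zeros in hippocampal replicates 3 and 4 can be failed measurements. Hippocampal replicate 4 listed 15684 genes from 15.4 M reads, whereas hemisphere replicate 4 listed 24547 from 15.8 M. The cause of the zeros was not tested. Region, dissection and library preparation cannot be told apart, and cell number cannot be separated from RNA per cell.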
